A study of Mus musculus with 6 samples.

Results

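The primary cilium is an antenna of the cell surface, and the genes that carry its cargo and guard its base were examined in kidneys with an active Notch2 transgene. The set holds 53 genes in 4 groups. There are 17 genes of intraflagellar transport, 12 of the BBSome with its chaperonins and GTPases, 6 of the motors, and 18 of the transition zone and its neighbours at the base of the cilium. Members were chosen by name, by matching each listed symbol to the gene symbol column of the deposited table, and all 53 were found among 19503 genes with values. Of these 53, 50 reached the expression filter of 1 FPKM or more in at least 3 libraries. Cep290, Kif7 and Kif17 did not and are given by their values alone. FPKM is the number of sequenced fragments relative to transcript length and to the size of the library.

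The libraries came from the RNA of whole kidneys at 8 weeks of age, 2 groups of 3 mouse libraries. The first group is labelled wild type. The second has the genotype R26NICD2/+ pax8cre and is called NICD2_Pax8 here. It carries 1 copy of an allele at the Rosa26 locus, named for the intracellular domain of Notch2, which is the part of this receptor that acts in the nucleus. The driver, named for Pax8, is active in the epithelium of the renal tubule and not in all kidney cells. The labels give pax8cre as the driver, whereas the series title gives Pax-rtTA, and titles in the wild-type group start with NICD, so it cannot be told from the sources used here whether those mice had the allele without the driver. Whether the 3 libraries of a group are separate animals is not stated, so the p-values reflect the spread among libraries, and part of it may be technical. The series title names cyst growth in the kidney as the subject of the study.

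Most epithelial cells of the renal tubule carry a primary cilium. Intraflagellar transport moves cargo along its microtubules, with the IFT-B complex and kinesin-2 going out and the IFT-A complex and dynein-2 coming back. The BBSome carries membrane proteins out of the cilium, and the transition zone is the gate at its base that decides what enters. Inherited loss of many of these genes causes nephronophthisis, Joubert, Meckel or Bardet-Biedl syndrome, in which kidneys are often cystic or scarred.

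Many cilium genes have an X-box in their promoter, the element bound by transcription factors of the RFX family. Promoters of 48 members, from 250 bases before to 50 bases after the transcript start, were read from RefSeq on GRCm38.p6, and Ift122, Ift81, Ift80, Tmem67 and Dync2li1 were not matched. The X-box was read as GTTNCC, a gap of 0 to 3 letters and GGNAAC, which spells the same on both strands. An exact X-box stood in 6 of the 48 member promoters (12.5%), in 253 of 27025 genes of the promoter table (0.936%), and in 104 of the 10307 genes tested for expression that were matched (1.01%). With at most 1 mismatch over the 10 fixed letters, the counts were 18 members (37.5%), 1662 of all genes (6.15%) and 747 of the genes tested (7.25%). The transition zone genes held most of these, 11 of 17 (64.7%), against 3 of 14 for intraflagellar transport, 3 of 12 for the BBSome group and 1 of 5 for the motors. The 6 exact elements are shown first below, then those of Cc2d2a and B9d1, whose elements have 1 mismatch and whose transcripts are among those described as higher later on. Capitals mark the element, each sequence reads 5′ to 3′ on the strand of the gene, and a sequence at or past the transcript start is given as the element alone.
Tctn3 (chr19:40612339-40612391, minus strand): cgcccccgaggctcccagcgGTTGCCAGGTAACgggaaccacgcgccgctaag
Mks1 (chr11:87853171-87853214, plus strand): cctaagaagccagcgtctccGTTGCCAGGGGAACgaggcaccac
Tctn1 (chr5:122264411-122264424, minus strand): GTTGCCCGGGCAAC
Ahi1 (chr10:20952568-20952581, plus strand): GTTACCTAGGCAAC
Bbs7 (chr3:36613477-36613530, minus strand): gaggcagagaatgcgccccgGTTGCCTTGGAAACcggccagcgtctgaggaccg
Ift57 (chr16:49699214-49699266, plus strand): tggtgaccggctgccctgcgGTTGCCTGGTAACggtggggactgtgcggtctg
Cc2d2a (chr5:43662333-43662378, plus strand): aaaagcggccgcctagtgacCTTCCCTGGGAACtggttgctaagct
B9d1 (chr11:61505138-61505151, plus strand): GTTTCCAAGACAAC
Each of the elements shown is 13 or 14 letters long. A match is a description of letters, and binding was not measured.

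**Figure D1:**
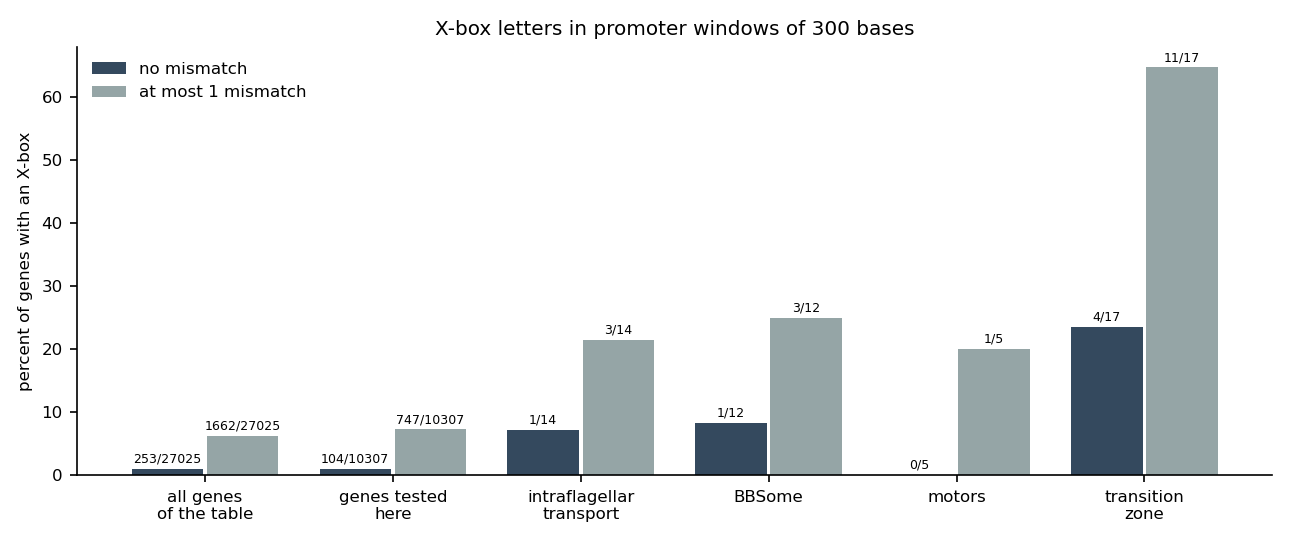
Percent of genes (vertical axis) whose promoter window of 300 bases held an X-box with no mismatch (dark bars) or at most 1 mismatch (light bars), with counts above the bars, for all genes of the promoter table, the genes tested for expression, and the 4 groups of members. The transition zone bar at 1 mismatch, 11 of 17 genes, is the highest, and the bars for all genes stay under 8%.

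The whole series sets the scale on which the members are read. The row named NOTCH2 in capitals, which has no position, lay at 1.54 to 4.29 scaled FPKM in wild type and 434 to 510 in NICD2_Pax8, and the mouse gene Notch2 at 5.09 to 6.29 and 10.6 to 12.0. Depth was 14800000 to 17600000 fragments per library, as judged by the spacing of low FPKM values, so that 1 FPKM over 1 kb rests on 14.8 to 17.6 fragments. FPKM carries no correction for composition, and from the values as deposited the median log2 fold change of all genes was 0.32. The values below are therefore FPKM divided by a median-of-ratios factor for each library (0.823 to 0.963 in wild type, 1.12 to 1.15 in NICD2_Pax8), called scaled FPKM, after which the median of all genes was 0.02. Fold changes called log2 are limma differences of log2(scaled FPKM + 1) with their standard error, NICD2_Pax8 minus wild type, and understate the change of low genes. Kidney markers were present, in wild type and NICD2_Pax8 in turn, at 1964 to 3398 and 37.5 to 229.8 scaled FPKM for Slc34a1, 683 to 1714 and 836 to 1441 for Umod, 5.49 to 7.06 and 0.720 to 1.25 for Nphs1, and 32.1 to 76.5 and 1.54 to 12.9 for Aqp2. The tissue itself differed between the groups. The summed level of 10 proximal tubule markers was 62173.8 to 110581.54 in wild type and 128.03 to 4179.58 in NICD2_Pax8, with all 10 lower, that of 8 cell division genes 8.87 to 29.07 and 195.36 to 231.04, with all 8 higher (Bub1, Ccnb1 and Cdk1 reached the filter only through NICD2_Pax8), and that of 6 macrophage markers 119.21 to 289.09 and 366.7 to 458.62, with 4 higher. Of the endothelial markers 5 of 5 were lower, of the thick limb 3 of 4, of podocytes 3 of 4 and of principal cells 3 of 5. The remaining podocyte marker, Synpo (2.28-fold), and principal cell markers, Scnn1b (1.82-fold) and Scnn1g (2.33-fold), were higher, and Umod was not called. Over all genes tested, 28.7% were higher and 25.7% lower. In whole kidney, fewer cells of a type and less RNA per cell cannot be told apart, and the part of these shifts in the members' values was not tested. Wild-type replicate 1 stood apart, with Cyp11a1 at 650 and Star at 620 scaled FPKM, both defining genes of the adrenal cortex, against at most 0.0781 and 1.66 in the other libraries, and with a summed level of 3 fat markers of 2470.0 against at most 664.63. Of 10 markers of cells with many motile cilia, 8 had values, and their summed level was 4.97 to 6.78 in wild type and 4.43 to 6.76 in NICD2_Pax8, much of it from Ccdc39 (3.07 to 4.71 and 1.38 to 3.44). Hydin was at 0 in 5 of the 6 libraries, and Foxj1 is given further on.

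Most of the cilium genes did not pass the test, and those that did were found in both directions. Of the 53 members, 9 were higher in NICD2_Pax8 (Ift43, Ift27, Ift140, Bbs5, Arl13b, Tctn3, B9d1, Cc2d2a and Cep164) and 8 were lower (Ift122, Ift20, Bbs2, Bbs7, Arl3, Ahi1, Invs and Tulp3), at a Benjamini-Hochberg adjusted limma p under 0.05 over 13500 genes. Over all genes tested, 28.7% were higher and 25.7% lower, 54.4% in either direction, against 17 of the 50 tested members. The 36 members that were not called include the 3 under the filter. The median log2 fold change of the tested members was 0.11, and their median absolute log2 fold change was 0.27 against 0.48 over all genes. Among tested members, 40 (80.0%) lay within 0.5 of zero, as did 51.2% of all genes. The largest change of any tested member, that of Tctn3 at 0.82, was exceeded in absolute size by 4191 genes (31.0%). On FPKM as deposited, without scaling, 28 members passed as higher and 3 as lower, against 45.1% and 16.2% of all genes (61.4% in either direction). All 9 higher members passed there too, while of the 8 lower ones only Bbs7, Arl3 and Tulp3 did. The share of higher calls among all calls over all genes was 52.7% after scaling and 73.6% without. None of the 17 called members changed sign in any of the 14 fits. Their groups did not overlap on scaled FPKM, so a library left out, the filter, the block or the pseudocount could hardly change a sign.

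**Figure D2:**
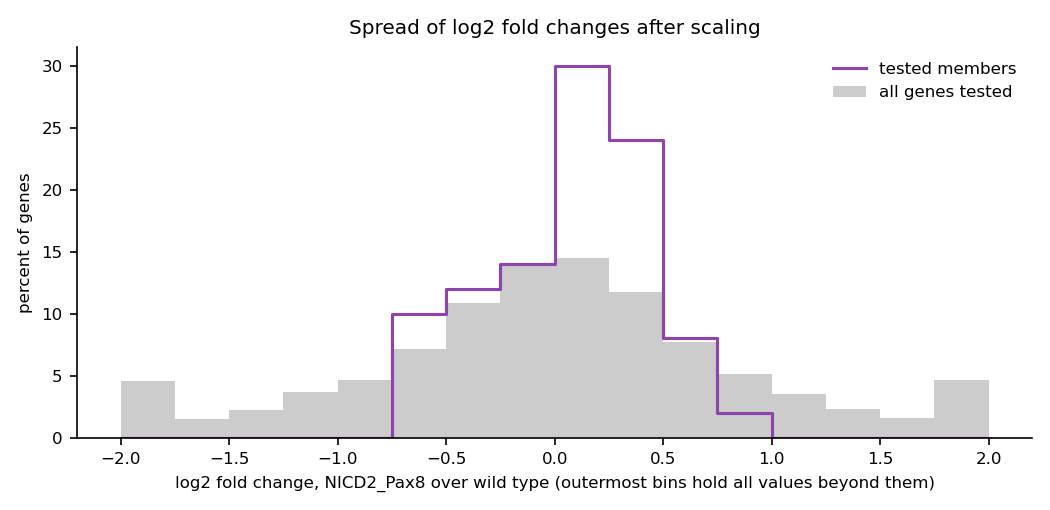
Percent of genes (vertical axis) in bins of the log2 fold change, NICD2_Pax8 over wild type (horizontal axis), for the 50 tested members (line) and all 13500 genes tested (grey bars). The members lie between -0.71 and 0.82, while grey bars fill the whole axis from -2 to 2, where the outermost bars pool all genes beyond the axis.

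**Figure D3:**
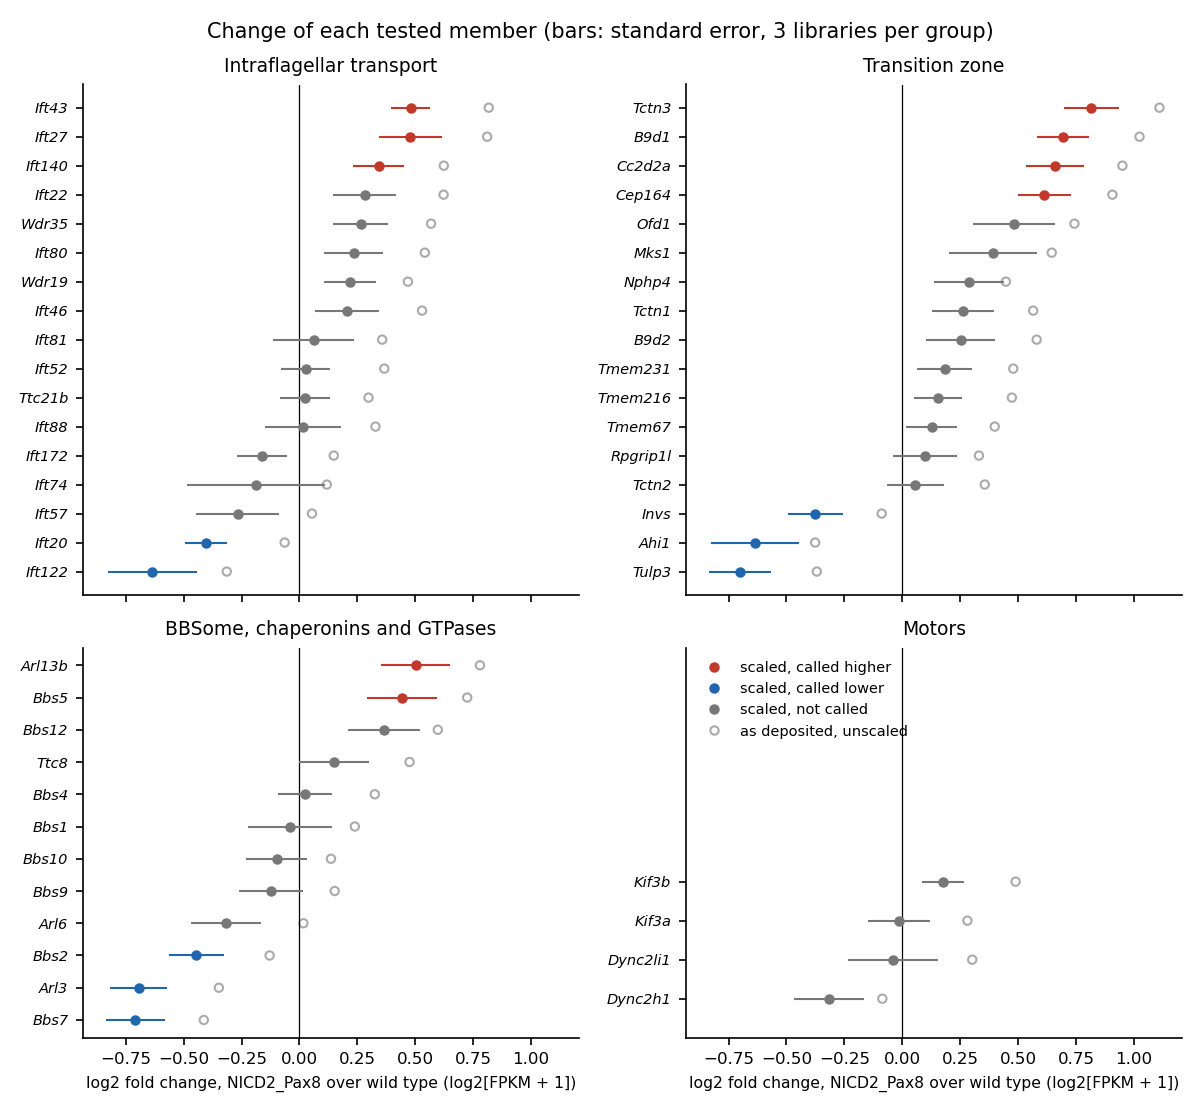
Log2 fold change of each of the 50 tested members with its standard error (filled points and bars, red for higher, blue for lower, grey for not called) and the same value from FPKM as deposited (open circles), in 4 panels by group, with 3 libraries per group. The open circles lie to the right of the filled points throughout, and the red points are most numerous in the transition zone panel.

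Calls among the intraflagellar transport genes went in both directions. Of the 17, 3 rose and 2 fell, against 28.7% and 25.7% of all genes. On FPKM as deposited 9 were higher and 0 lower, against 45.1% and 16.2% of all genes. Only the calls of Ift43 and Ift20 held with each library left out in turn. In IFT-A, the complex of the return journey that also brings receptors into the cilium with Tulp3, Ift43 and Ift140 were higher and Ift122 was lower. In IFT-B, Ift27 was higher and Ift20 was lower. The other 12 members did not pass, with log2 fold changes from -0.27 (Ift57) to 0.28 (Ift22).

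Ift43 encodes a small subunit of IFT-A (gene 76411, chromosome 12, 86082561 to 86162459 on GRCm38). Its scaled FPKM was 19.7, 19.2 and 18.1 in the wild-type libraries (in the order of replicates 1, 2 and 3, as in all such lists) and 27.0, 26.2 and 27.5 in NICD2_Pax8. All 3 NICD2_Pax8 libraries lay above all wild-type libraries, with little spread in either group, and the log2 fold change was 0.48 (SE 0.085, adjusted p = 0.00344). Ift140, a large subunit of the same complex (chromosome 17, 25016083 to 25099499), went from 3.47 ± 0.13 to 4.69 ± 0.51 scaled FPKM (SD, n = 3; limma adjusted p = 0.0357). Its call was lost with 4 of the 6 libraries left out in turn, up to an adjusted p of 0.142 (wild-type replicates 2 and 3, NICD2_Pax8 replicates 2 and 3), with the replicate number as a block (0.0844), with quantile scaling (0.109) and without the filter (0.0675).

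Ift122, another core subunit of IFT-A, went the other way (gene 81896, chromosome 6, 115853379 to 115926699). Its scaled FPKM was 9.55, 15.0 and 15.3 in wild type and 7.12, 7.95 and 9.07 in NICD2_Pax8. The groups did not overlap, but wild-type replicate 1, the library with adrenal transcripts, lay close to the NICD2_Pax8 libraries. On the log2 scale the difference was -0.64 (SE 0.192, adjusted p = 0.0292) and -0.84 without that library (adjusted p = 0.00207). Leaving out wild-type replicate 2 or 3, or NICD2_Pax8 replicate 1 or 2, ended the call (0.0753 to 0.0966), as did FPKM as deposited (-0.31, adjusted p = 0.121). The remaining IFT-A genes, Ttc21b, Wdr19 and Wdr35, had log2 fold changes of 0.02, 0.22 and 0.26 and did not pass.

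Ift27 encodes a small GTPase of IFT-B that works with the BBSome in clearing proteins from the cilium (gene 67042, chromosome 15, 78159460 to 78174081). Its scaled FPKM was 11.8, 13.7 and 15.0 in wild type and 16.4, 21.1 and 19.98 in NICD2_Pax8. The lowest NICD2_Pax8 library lay just above the highest wild-type one, and the log2 fold change was 0.48 (SE 0.136, adjusted p = 0.0231). The call was lost without wild-type replicate 2 or NICD2_Pax8 replicate 2 or 3 (adjusted p 0.0613, 0.08 and 0.0821).

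Ift20 encodes the subunit of IFT-B that also sits on the Golgi and helps send membrane proteins to the cilium (gene 55978, chromosome 11, 78536361 to 78541732). It was the most abundant intraflagellar transport gene, at 35.3, 32.3 and 36.6 scaled FPKM in wild type and 26.6, 25.5 and 25.7 in NICD2_Pax8. Each NICD2_Pax8 library lay below each wild-type library, and the 3 NICD2_Pax8 values differed little. In log2 terms this was -0.41 (SE 0.09, adjusted p = 0.0088), and the call held with each library left out in turn. On FPKM as deposited the difference was -0.06 and was not called (adjusted p = 0.612).

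Ift74 and Ift81 form the tubulin-binding pair of IFT-B, and both stood high in 1 library. Ift74 read 6.11, 6.87 and 7.25 scaled FPKM in wild type and 10.1, 3.86 and 4.83 in NICD2_Pax8. Ift81 read 4.78, 5.51 and 5.07 in wild type and 7.25, 4.67 and 4.53 in NICD2_Pax8. In both genes NICD2_Pax8 replicate 1 was above every wild-type library while the other NICD2_Pax8 libraries were below. The log2 fold change of Ift74 was -0.19 (adjusted p = 0.617), and without NICD2_Pax8 replicate 1 it was -0.53 (adjusted p = 0.0223). Ift88, the gene disrupted in a classic mouse model of polycystic kidney, had means of 7.78 ± 1.67 and 7.78 ± 0.72 scaled FPKM (SD, n = 3) and a log2 fold change of 0.01 (SE 0.164).

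Of the 12 genes of the BBSome group, 2 rose (Bbs5 and Arl13b) and 3 fell (Bbs2, Bbs7 and Arl3), against 28.7% and 25.7% of all genes. With quantile scaling neither rise was called (adjusted p = 0.125 for Bbs5 and 0.0604 for Arl13b). The subunits of the complex, which assemble together, were present at wild-type means from 3.31 (Bbs5) to 11.3 scaled FPKM (Ttc8). The 7 that did not pass had log2 fold changes from -0.32 (Arl6) to 0.37 (Bbs12).

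Bbs7 belongs, with Bbs2 and Bbs9, to the core on which the BBSome is built (gene 71492, chromosome 3, 36573142 to 36613492), and its promoter holds an exact X-box, printed above. Its scaled FPKM was 6.449, 7.004 and 7.604 in wild type and 4.55, 3.32 and 3.90 in NICD2_Pax8. The groups were well apart. The log2 fold change was -0.71 (SE 0.128, adjusted p = 0.00381), the most negative of any tested member, and the call held with each library left out and on FPKM as deposited.

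Bbs2 was lower as well (gene 67378, chromosome 8, 94067952 to 94099369). It read 8.598, 10.7 and 11.2 scaled FPKM in wild type and 7.25, 6.88 and 7.34 in NICD2_Pax8, without overlap. On the log2 scale the difference was -0.45 (SE 0.119, adjusted p = 0.0183). It was not called without wild-type replicate 2 or 3 or NICD2_Pax8 replicate 2 or 3 (0.052 to 0.0696), nor on FPKM as deposited (-0.13, adjusted p = 0.301). Bbs9, the partner of both, was at 3.65 ± 0.54 in wild type and 3.27 ± 0.47 in NICD2_Pax8 (scaled FPKM, SD, n = 3), and its log2 fold change of -0.12 did not pass.

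Bbs5, a subunit that binds membrane phosphoinositides (chromosome 2, 69646848 to 69667571), went from 3.31 ± 0.57 to 4.85 ± 0.81 scaled FPKM (SD, n = 3; log2 fold change 0.44, limma adjusted p = 0.0456). That call was lost without wild-type replicate 1 or 2 or NICD2_Pax8 replicate 1 or 3, up to an adjusted p of 0.141, with the replicate block (0.0591) and without the filter (0.0797). The chaperonin-like genes Bbs10 and Bbs12, which help assemble the complex, had log2 fold changes of -0.10 and 0.37 and did not pass.

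Arl3 was the most abundant of all 53 members. It encodes the GTPase that releases lipid-tailed cargo inside the cilium (gene 56350, chromosome 19, 46531109 to 46573182). Its scaled FPKM was 59.0, 63.1 and 73.9 in wild type and 37.2, 44.1 and 38.4 in NICD2_Pax8. The lowest wild-type library was well above the highest NICD2_Pax8 library. In log2 terms this was -0.69 (SE 0.122, adjusted p = 0.00345), and -0.35 on FPKM as deposited (adjusted p = 0.0197).

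Arl13b, which switches Arl3 on in the cilium, moved the opposite way (chromosome 16, 62793308 to 62847055). It read 3.21, 3.20 and 2.86 scaled FPKM in wild type and 6.02, 4.13 and 4.37 in NICD2_Pax8. The groups did not overlap and NICD2_Pax8 replicate 1 was the highest. The log2 fold change was 0.50 (SE 0.147, adjusted p = 0.0258), and 0.37 without that library (adjusted p = 0.0383). Its call was lost without wild-type replicate 2 or 3 or NICD2_Pax8 replicate 3, up to an adjusted p of 0.078. Arl6, the GTPase that recruits the BBSome to membranes, was at 15.1, 20.1 and 21.5 scaled FPKM in wild type and 16.1, 13.4 and 15.1 in NICD2_Pax8. Its groups overlapped only through wild-type replicate 1. With all libraries its log2 fold change was -0.32 (adjusted p = 0.12), and without wild-type replicate 1 it was -0.46 (adjusted p = 0.0138).

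**Figure D4:**
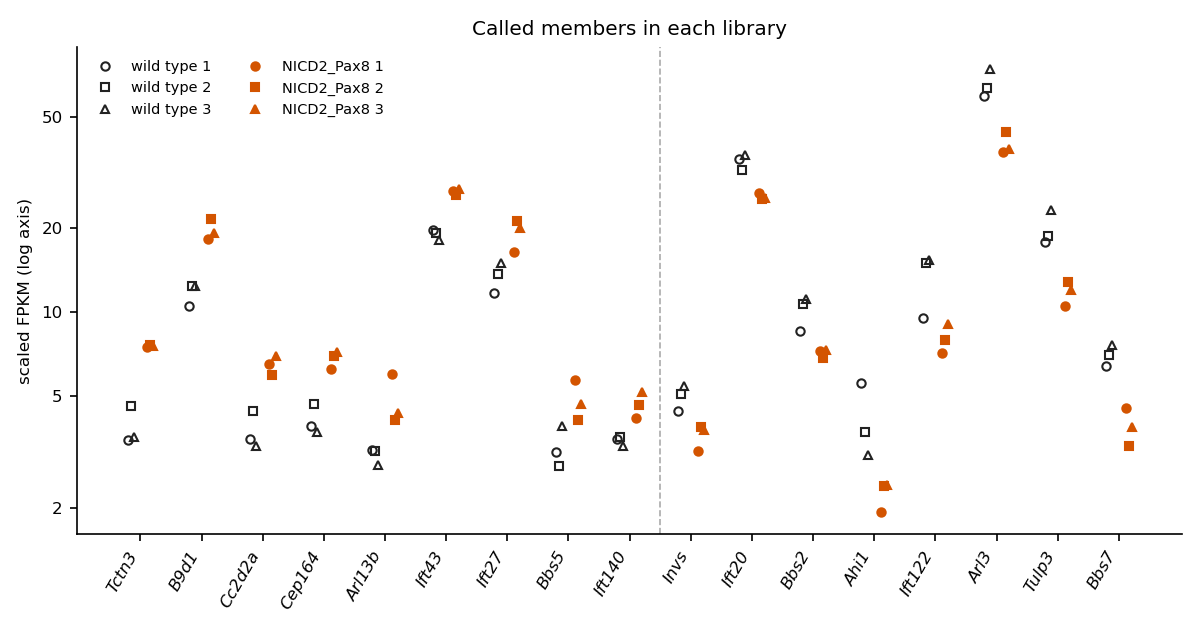
Scaled FPKM (log axis) of the 17 called members in each of the 6 libraries, with open symbols for wild type, filled for NICD2_Pax8, and a symbol shape for each replicate number; higher members stand left of the dashed line and lower ones right of it. No member shows overlap between open and filled symbols, and Ahi1 and Ift122 have the widest spread among wild-type libraries.

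The motor genes did not pass the test in either direction. By limma, 0 of the 4 tested motor genes were called, against 54.4% of all genes, and 0 had an unadjusted p under 0.05. In the authors' deposited table, 1 of the 6, Kif17, was lower. Kif3b, a motor subunit of kinesin-2 (gene 16569, chromosome 2, 153291416 to 153333390), read 6.93, 7.46 and 7.26 scaled FPKM in wild type and 8.52, 7.93 and 8.43 in NICD2_Pax8. Its groups did not overlap, and the log2 difference was small at 0.18 (SE 0.09, adjusted p = 0.137), against 0.49 on FPKM as deposited (adjusted p = 0.00528). Its partner Kif3a was at 5.33 ± 0.82 and 5.25 ± 0.55 (scaled FPKM, SD, n = 3).

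Dync2h1, the heavy chain of dynein-2 (gene 110350, chromosome 9, 6928550 to 7178306), read 1.64, 2.47 and 2.42 scaled FPKM in wild type and 1.77, 1.37 and 1.48 in NICD2_Pax8. As with Arl6, only wild-type replicate 1 overlapped the NICD2_Pax8 range. On the log2 scale the difference was -0.32 (SE 0.152, adjusted p = 0.12), and -0.45 without that library (adjusted p = 0.0239). Dync2li1, the light intermediate chain (gene 213575, chromosome 17, 84626475 to 84655568), was far more abundant, at 19.1, 29.3 and 32.0 in wild type and 24.0, 27.6 and 24.95 in NICD2_Pax8. Its groups overlapped and its difference changed sign with the scaling, from -0.04 to 0.30 on FPKM as deposited.

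Kif17 and Kif7 were under the filter. Kif17, an accessory kinesin, read 0.706, 0.103 and 0.158 scaled FPKM in wild type and 0.0867, 0.0268 and 0.0537 in NICD2_Pax8. Its wild-type mean is set by replicate 1, the library with adrenal transcripts, and the log2 fold change of -2.13 in the authors' deposited table (q = 0.0497) includes that library. Kif7, a regulator of hedgehog signalling at the tip of the cilium, read 0.530, 0.366 and 0.389 in wild type and 0.737, 0.473 and 0.564 in NICD2_Pax8, and its groups overlapped.

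The transition zone held the largest rises among the members. Of its 18 genes, 4 rose (Tctn3, B9d1, Cc2d2a and Cep164) and 3 fell (Tulp3, Ahi1 and Invs). Over all genes tested, 28.7% were higher and 25.7% lower. Tctn3, B9d1 and Cc2d2a belong to the module of membrane and B9-domain proteins named for Meckel syndrome, the MKS module, which holds 11 of the members. In that module 10 of the 11 log2 fold changes were above zero, from 0.06 (Tctn2) to 0.82 (Tctn3), and Ahi1 was the exception. The median over all genes tested was 0.02, and the sign of a change near zero depends on the scaling. Tctn2 turned below zero with quantile scaling (-0.05) and without wild-type replicate 1 (-0.02). By call, 3 of the 11 were higher and 1 lower, against 28.7% and 25.7% of all genes. On FPKM as deposited, where 45.1% of all genes passed as higher and the median of all genes was 0.32, 10 of the 11 did. The 7 members of the module that did not pass lay between 0.06 and 0.39.

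Tctn3 encodes a tectonic protein of the gate (gene 67590, chromosome 19, 40596446 to 40612319), and its promoter holds the exact X-box printed first above. Its scaled FPKM was 3.49, 4.62 and 3.58 in wild type and 7.49, 7.65 and 7.58 in NICD2_Pax8. Mean expression was 1.94-fold higher, the groups were far apart, and the NICD2_Pax8 libraries were nearly equal. In log2 terms this was 0.82 (SE 0.119, adjusted p = 0.00163). The related tectonics Tctn1 and Tctn2, each with an X-box, had log2 fold changes of 0.26 and 0.06 and did not pass. For Tctn1, 19.0% of exon bases are also covered by exons of Hvcn1 on the opposite strand, and reads of the pair may not be separable.

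B9d1 encodes a B9-domain protein of the same module (gene 27078, chromosome 11, 61505144 to 61512931). It read 10.5, 12.5 and 12.4 scaled FPKM in wild type and 18.3, 21.5 and 19.2 in NICD2_Pax8. The mean was 1.67-fold higher without overlap, and the log2 fold change was 0.69 (SE 0.111, adjusted p = 0.00233). The other B9-domain genes, B9d2 and Mks1, form a complex with it. B9d2 had a log2 fold change of 0.25 (adjusted p = 0.192) and Mks1 of 0.39 (adjusted p = 0.123). Mks1 varied among the wild-type libraries, from 1.59 to 3.07 scaled FPKM.

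Cc2d2a, a large scaffold of the gate (gene 231214, chromosome 5, 43662374 to 43740975), read 3.52, 4.43 and 3.32 scaled FPKM in wild type and 6.54, 5.96 and 6.96 in NICD2_Pax8. The mean was 1.73-fold higher and the groups did not overlap (log2 fold change 0.66, SE 0.126, adjusted p = 0.00488). The calls of Tctn3, B9d1 and Cc2d2a held with each library left out in turn, with the replicate block and on FPKM as deposited. The membrane proteins Tmem67, Tmem216 and Tmem231 had log2 fold changes of 0.13, 0.15 and 0.18 and did not pass.

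Ahi1, a Joubert syndrome gene of the same module (gene 52906, chromosome 10, 20952547 to 21080429), fell. Its promoter too holds an exact X-box. It read 5.57, 3.73 and 3.10 scaled FPKM in wild type and 1.93, 2.40 and 2.41 in NICD2_Pax8. The groups did not overlap, and wild-type replicate 1, the library with adrenal transcripts, was the highest. The log2 fold change was -0.64 (SE 0.191, adjusted p = 0.0289) and -0.45 without that library (adjusted p = 0.0314). Without wild-type replicate 2 or any 1 of the NICD2_Pax8 libraries it was not called (0.0585 to 0.0908), nor with the replicate block (0.06), without the filter (0.0522) or on FPKM as deposited (0.183).

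Invs, Nphp4, Rpgrip1l and Cep290 are set apart from the MKS module in the grouping used here. Invs was lower by the limma test. It encodes inversin of the segment just beyond the gate (gene 16348, chromosome 4, 48279707 to 48431956) and read 4.44, 5.12 and 5.43 scaled FPKM in wild type and 3.20, 3.88 and 3.79 in NICD2_Pax8. The groups were separate but close, and the log2 fold change of -0.38 (SE 0.118, adjusted p = 0.0341) lost its call with wild-type replicate 2 or 3 or any 1 of the NICD2_Pax8 libraries left out (0.0619 to 0.109) and without the filter (0.0637), and was -0.09 on FPKM as deposited (adjusted p = 0.505). Nphp4, which links the gate's modules, read 1.05, 0.675 and 0.510 in wild type and 1.03, 1.15 and 1.15 in NICD2_Pax8, so it reached the filter mainly through the NICD2_Pax8 group. Its log2 fold change was 0.29 (adjusted p = 0.151), 0.41 without wild-type replicate 1 (adjusted p = 0.0348), and 0.45 on FPKM as deposited (adjusted p = 0.0491). Rpgrip1l, a scaffold of the same module, was at 1.82 ± 0.18 and 2.03 ± 0.41 scaled FPKM (SD, n = 3). Cep290, which tethers the membrane to the microtubules of the gate and was under the filter, read 0.883, 1.18 and 1.03 in wild type and 1.54, 0.375 and 0.492 in NICD2_Pax8. Replicate 1 of NICD2_Pax8 was the highest library for Cep290, and the other NICD2_Pax8 libraries were the lowest.

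Below the gate, Cep164, which sits on the distal appendages that dock the basal body to the membrane, rose (gene 214552, chromosome 9, 45766946 to 45828686). It read 3.93, 4.68 and 3.74 scaled FPKM in wild type and 6.27, 6.97 and 7.18 in NICD2_Pax8. The groups were well apart, with a mean 1.65-fold higher and a log2 difference of 0.61 (SE 0.115, adjusted p = 0.00444). Ofd1, a centriole and satellite protein on the X chromosome, read 2.16, 2.44 and 2.22 in wild type and 4.93, 3.09 and 2.94 in NICD2_Pax8. Its groups did not overlap, yet the difference of 0.48 (SE 0.177) missed the threshold (adjusted p = 0.056). In the authors' deposited table Ofd1 was called higher.

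Tulp3, the adaptor that hands receptors and other membrane proteins to IFT-A, fell (gene 22158, chromosome 6, 128321161 to 128355851). It read 17.8, 18.7 and 23.3 scaled FPKM in wild type and 10.6, 12.8 and 12.1 in NICD2_Pax8. The groups were well apart, with a wild-type mean 1.68 times that of NICD2_Pax8. On the log2 scale the difference was -0.70 (SE 0.134, adjusted p = 0.00482), and -0.37 on FPKM as deposited (adjusted p = 0.0233).

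The calls differ in how much they rest on single libraries. With each of the 6 libraries left out in turn, 5 of the higher members (Ift43, Tctn3, B9d1, Cc2d2a and Cep164) and 4 of the lower (Ift20, Bbs7, Arl3 and Tulp3) kept their calls in every fit. The other 8 lost theirs in at least 3 of the 6. Without wild-type replicate 1, the library with adrenal transcripts, 9 members were higher and 10 lower, and without wild-type replicate 2, 5 were higher and 4 lower. Without NICD2_Pax8 replicate 3 there were 5 and 5, without NICD2_Pax8 replicate 2 there were 7 and 4, and without wild-type replicate 3 there were 8 and 5. Over all genes, 3873 were higher and 3473 lower with all libraries. The counts were 4105 and 3600 without wild-type replicate 1, 3208 and 2553 without replicate 2, and 3340 and 2696 without replicate 3. Without NICD2_Pax8 replicate 2 they were 2724 and 2912, and without its replicate 3 they were 2648 and 2780. Groups did not overlap for 16 tested members in the higher direction and 8 in the lower, while 34.3% and 30.5% of all genes were separated in the same way. In the authors' deposited table, which gives DESeq2 q-values, 9 members were higher and 8 lower at q under 0.05, against 21.3% and 21.5% of 19439 genes, and 8 and 7 of these were also called here. Ofd1 and Kif17 were called there only, and Bbs5 and Ahi1 here only. Wild-type replicate 1 was the lowest wild-type library for 35 of the 53 members and the highest for 11.

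NICD2_Pax8 replicate 1 differed from its group in a set of members. It was more than 1.3 times the next NICD2_Pax8 library for 9 members, from 1.31 times (Kif7) to 3.12 times (Cep290), and for Ift74 2.08, Kif17 1.62, Ofd1 1.59 and Ift81 1.55 times. Among tested members 6 of 50 (12.0%) passed that mark, against 8.92% of all genes tested. The longest transcripts of these 9 had a median of 43.0% G and C (38.7% to 60.1%), against 48.1% for the other members (39.9% to 59.3%). Kif17 (60.1%) and Kif7 (59.6%), both under the filter, were the highest of all members. Across the 50 tested members, the deviation of replicate 1 from the mean of the other NICD2_Pax8 libraries went with the G and C content at a Spearman rho of -0.59 and a Pearson r of -0.59. Over 12605 genes these were -0.39 and -0.33. Genes are not independent replicates and all points share the same 3 libraries, so the values are descriptions, and the part of base composition in the members' changes was not tested.

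**Figure D5:**
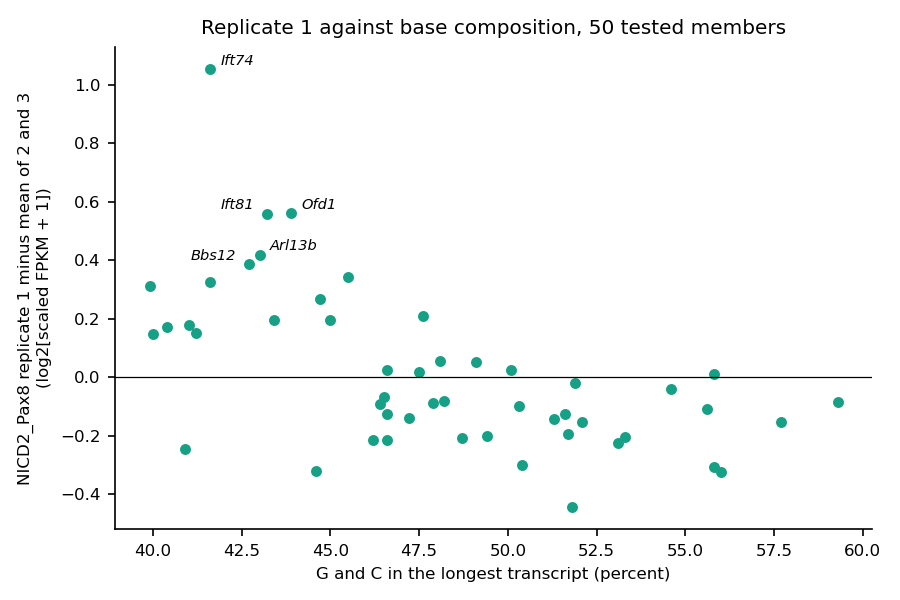
Difference of NICD2_Pax8 replicate 1 from the mean of replicates 2 and 3 (log2 of scaled FPKM + 1, vertical axis) against the percent of G and C in the longest transcript (horizontal axis), 1 point for each of the 50 tested members. Members with a low G and C content lie mostly above zero, with Ift74 the highest, and those with a high content mostly below.

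X-box and change can be set side by side for 45 tested members. Of the 18 members with an X-box at up to 1 mismatch, 17 were tested, 3 were higher (Tctn3, B9d1 and Cc2d2a) and 2 lower (Bbs7 and Ahi1), with a median log2 fold change of 0.18. Of the 30 without, 28 were tested, 6 were higher and 5 lower, with a median of 0.06. Over all genes tested, 28.7% were higher and 25.7% lower, with a median of 0.02. The range was -0.71 to 0.82 with the element and -0.70 to 0.61 without, so members with the element were found at both ends. Among RFX genes, 6 were listed and 5 tested, and 2 were higher, Rfx5 (4.70 ± 0.61 to 7.28 ± 0.67 scaled FPKM, SD, n = 3) and Rfx2 (1.32 ± 0.18 to 2.14 ± 0.27). Rfx2 reached the filter only through NICD2_Pax8. Rfx1, the most abundant, was at 7.12 ± 0.87 and 8.36 ± 0.48 and did not pass. Rfx3, a factor known for driving cilium genes, was at 1.01 ± 0.08 and 1.13 ± 0.25 and did not pass. Like Rfx2, Rfx3 reached the filter only through NICD2_Pax8. Foxj1, the switch for motile cilia, was at 0.170 to 0.320 scaled FPKM in wild type and 1.08 to 1.51 in NICD2_Pax8, and it reached the filter only through the second group.

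Further genes of the same machinery were counted by list, against 28.7% higher and 25.7% lower over all genes. Of 16 further transport genes, 2 were higher and 3 lower, and 4 and 0 on FPKM as deposited, where none of the 3 lower calls was left. Ttc30a1, an IFT-B subunit with close copies whose reads may be shared, went from 2.17 ± 0.21 to 3.88 ± 0.10 scaled FPKM (SD, n = 3). Mkks, a chaperonin-like partner of Bbs10 and Bbs12, went from 16.02 ± 0.27 to 11.8 ± 0.32. Of 19 further genes of the gate and the ciliary membrane, 5 were higher and 2 lower, and 9 and 0 on FPKM as deposited. Tmem138, which lies next to its fellow gate gene Tmem216 on chromosome 19, was 2.02-fold higher, whereas Tmem216 at 1.12-fold did not pass. Cep41, which reached the filter only through NICD2_Pax8, was 2.38-fold higher, and Rab8a, the most abundant of that list, was at 62.0 ± 4.4 and 60.5 ± 8.1 scaled FPKM.

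Among 15 genes of the basal body and of cilium assembly and disassembly, 7 were higher and 2 lower, and 7 and 0 on FPKM as deposited. Of the 7, Kif24 and Nek2 reached the filter only through NICD2_Pax8, the group where they are high. The largest rises were of Aurka and Nek2, mitotic kinases that also promote loss of the cilium. Aurka read 1.27, 3.63 and 1.51 scaled FPKM in wild type and 15.4, 20.5 and 19.5 in NICD2_Pax8. Nek2 read 0.768, 2.91 and 1.76 in wild type and 15.0, 14.4 and 18.6 in NICD2_Pax8. In both genes every NICD2_Pax8 library was far above every wild-type one. All 8 cell division genes were higher too, and their part in these values was not tested. Hdac6, a deacetylase of ciliary microtubules and the most abundant of the list, was at 22.9 ± 4.7 and 22.6 ± 1.3. Of 12 hedgehog pathway genes, whose signal passes through the cilium, 4 were tested and Ptch1 was higher (4.70 ± 0.48 to 6.36 ± 0.24). Smo, the most abundant, was at 19.3 ± 1.6 and 21.4 ± 1.1 and did not pass.

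Exons of 13 members overlap those of another gene in GENCODE M21, and no strand setting of the authors' counting is given in the sources used here. Among the 17 called members, 1 is affected, Invs, with 1.98% of its exon bases shared with Tex10. By level per length, the members spanned from 0.32 (Kif17) to 65.3 scaled FPKM (Arl3) as wild-type means, with a median of 5.33 in wild type and 6.25 in NICD2_Pax8.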

How the data were processed

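The deposited table holds FPKM per gene and library, computed by the authors, per the file headers. Per the file headers, the authors also gave log2 fold changes, p-values and q-values from DESeq2 for the group comparison. Bowtie 0.12.2 and mm8 are named in the submitters' processing notes, but 86.6% of 17966 rows matched by gene number had the start and end of RefSeq GRCm38.p6 (41 of 53 members), so positions are read as GRCm38. The counting tool and annotation version were not given in the sources used here. Of 23873 rows, 4370 had no values. FPKM was divided by median-of-ratios factors, because FPKM lacks scaling for composition. log2(scaled FPKM + 1) of the 13500 genes with at least 1 deposited FPKM in 3 or more libraries was then tested with limma 3.58.1 (trend, genotype only, two-sided) in R 4.3.3, with Benjamini-Hochberg adjustment and an adjusted p under 0.05 called. The test was also run on simulated data with few genes changed, as many up as down. In these data 54.4% of genes were called, so that run does not cover the scaling or the share of calls here. Its outcome is not given. Depth was estimated, with 71.5% to 78.7% of low values within 0.15 of whole fragments. It sets counting error only.

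The members and lists were chosen with earlier results of these data known. Values per library are given for the 3 members of each group of smallest p, the most abundant member of each, and those called lower. From each of the other lists the text names the most abundant gene and the 2 of smallest p. Cc2d2a, Ift140, Arl13b, Bbs5, Arl6, Ift74, Ift81, Ofd1, Nphp4 and other members and genes named beyond this rule were picked after their values were seen. Alternatives were no scaling, upper quartile and quantile scaling, pseudocounts of 0.1 and 5, no filter, a replicate block, each library left out, an adjusted p of 0.01 and the authors' q-values.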

Additional observations from a re-analysis of the deposited data

How the results depend on the processing

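With FPKM as deposited, 28 members were higher and 3 lower (9 and 8 after scaling), the other cilium lists gave 27 and 0 (17 and 7), all genes gave 6095 and 2190 (3873 and 3473), and the members' median was 0.38, against 0.32 over all genes. At an adjusted p under 0.01, 5 members were higher and 4 lower, 9 and 1 genes of the other lists, and 2727 and 2326 of all genes. Without the filter 7 members were higher and 6 lower (Ift140, Bbs5, Ahi1 and Invs lost their calls), and 3 genes of the other lists were lower. That fit gave 4045 higher and 3694 lower over all genes. Leaving out 1 library at a time gave 5 to 9 higher and 4 to 10 lower members, 11 to 17 higher (11 without NICD2_Pax8 replicate 2 or 3) and 1 to 11 lower genes of the other lists (11 without wild-type replicate 1, 1 without wild-type replicate 2 or 3 or NICD2_Pax8 replicate 3, 2 without NICD2_Pax8 replicate 2), 2648 to 4105 higher and 2553 to 3600 lower genes over all, and a member median of 0.08 to 0.14. Dync2li1 (-0.04) changed sign to 0.30 unscaled, to 0.025 with upper quartile scaling and to 0.027 with quantile scaling, and ran from -0.26 to 0.10 with 1 library left out. Unscaled, 0 genes of the other lists were lower by limma also at an unadjusted p under 0.05, and 9 in the authors' table. The cause was not tested.

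Nothing states whether the replicate numbers pair the samples, though the authors' headers also compare same-numbered libraries in pairs. Deviations of same-numbered libraries correlated at 0.108, -0.049 and 0.014, and not every library correlated best with its own number. So few libraries per group cannot decide the question. With the replicate number as a block, 7 members were higher and 7 lower, and 4 genes of the other lists were lower. Over all genes the block gave 3606 higher and 3381 lower. Upper quartile and quantile scaling, both pseudocounts and the authors' q-values kept the member counts within 1.5 times, but quantile scaling ended the calls of Ift140, Bbs5 and Arl13b and added Ift22, and upper quartile scaling added Ift22 and Wdr35. Depth limits genes near 1 FPKM, which over 1 kb rests on 14.8 to 17.6 fragments.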
